A study of Mus musculus with 6 samples.

Results

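The voltage-gated sodium channel genes described here are 6 of the 54532 genes in the table: the alpha subunit genes Scn4a, Scn7a and Scn10a and the beta subunit genes Scn2b, Scn3b and Scn4b, taken by gene symbol. They were measured in the myocardium of hypertrophic hearts from wild-type C57BL/6 mice of 18 weeks. The 3 libraries called EGFP control came from hearts given adeno-associated virus AAV9 carrying EGFP (Ctrl AAV9-EGFP), and the 3 called TuD came from hearts given AAV9-anti-miR-199a TuDs, tough decoys that bind the microRNA and keep it from its targets. Both groups had therefore received AAV9. The labels do not state the promoter of either virus, its dose, the cells it reached, the sex of the mice or how hypertrophy was induced. They also do not state whether each library is a separate animal, so part of the spread between libraries may be technical. The 6 genes were chosen with results of this same comparison known, so their differences between the groups are given as a description and not as tests.

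Voltage-gated sodium channels open when the membrane depolarises and carry the fast inward sodium current of the action potential in heart, skeletal muscle and neurons. An alpha subunit forms the pore. Beta subunits are small proteins with an immunoglobulin-like domain outside the cell and a single membrane span, which change the gating and surface level of the alpha subunit and take part in cell adhesion. Scn4a encodes the alpha subunit of skeletal muscle and Scn10a one best known from sensory neurons, while the product of Scn7a is an atypical alpha subunit linked to sensing of extracellular sodium. The products of Scn2b and Scn4b are joined to the alpha subunit by a disulfide bond and that of Scn3b is not, and the cytoplasmic tail of the Scn4b product can block the open channel.

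The microRNA bound by the decoys has 2 mature arms. They are shown here, from RefSeq (GRCm38.p6), because the members differ in whether their 3' untranslated regions hold a match to either seed. The capitals mark the seed, bases 2 to 8, and the seeds of the arms differ.
miR-199a-5p: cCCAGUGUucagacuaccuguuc
miR-199a-3p: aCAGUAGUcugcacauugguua

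All 6 members have an annotated 3' untranslated region in GENCODE M21 (GRCm38), and 3 of them, Scn4b, Scn7a and Scn3b, held at least 1 match of 7 or 8 bases to a seed. The matches are shown 5' to 3' on the strand of the gene, with the matched bases in capitals, including an A opposite the first base of the microRNA where there is one.
Scn4b, miR-199a-5p, 8 bases: ctcccccaACACTGGAagaggcca
Scn4b, miR-199a-5p, 7 bases: ccatctccCACTGGAtgtgcagt
Scn7a, miR-199a-3p, 8 bases: tagttttaACTACTGAcattattt
Scn7a, miR-199a-3p, 7 bases: tatatattCTACTGActtagata
Scn3b, miR-199a-5p, 7 bases: tctgtgtgCACTGGAatacattc

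The matches of Scn4b lay in its last exon, exon 5, at chr9:45152527-45152534 and chr9:45153884-45153890 on the plus strand. Those of Scn7a lay in exon 25, also the last, at chr2:66674204-66674211 and chr2:66674038-66674044 on the minus strand. The match of Scn3b lay in exon 6, the last of its transcript, at chr9:40289277-40289283 on the plus strand. Scn4a, Scn10a and Scn2b held no such match, in untranslated regions of 1072, 469 and 3766 bases. Over 21173 genes with an annotated 3' untranslated region, 22.3% held a match to miR-199a-5p and 14.3% one to miR-199a-3p. Long regions hold more matches. The region of Scn4b has 3648 bases, against a median of 1084, and among 2216 other genes whose region was of like length (within a ratio of 0.8 either way) 45.8% held a match to miR-199a-5p and 14.5% held 2 or more. For Scn7a, with 2073 bases, the shares for miR-199a-3p were 18.9% and 2.06%. A match is a description of sequence and does not show that the microRNA acts there.

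Between 15.2 and 18.2 M reads (M, megareads) per library were recovered from the table. The libraries with the decoys were shallower, with 16.0 ± 0.731 M against 18.1 ± 0.113 M reads (SD, n = 3 per group). The TuD libraries were not uniform. Levels are FPKM (fragments per kilobase of gene, scaled by a divisor for each library). Transcripts of 4 Y-linked genes summed to 8.32 to 9.59 FPKM in the controls and 12.5 in TuD replicate 3. In TuD replicates 1 and 2 they summed to 0.0254 and 0.00711. TuD replicate 3 was therefore not a repeat of the same source as TuD replicates 1 and 2. The Y chromosome is carried by males, so sex and the decoys are partly confounded in this comparison. The atrial myosin light chain Myl7 stood at 90.5 in TuD replicate 3 and at 0.178 to 1.44 in the other libraries. A covariate for Y-linked transcripts leaves TuD replicate 3 as the only decoy library that informs the comparison, and values with it are given beside the members. Markers of heart muscle were present in all 6 libraries, such as Myh6 at 3537 to 4169 and Myl2 at 4664 to 9764.

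Levels below are normalised FPKM, FPKM divided by a size factor for each library, which allows comparison between genes because FPKM is per length. In the controls the order of the members was Scn4b, Scn4a, Scn7a, Scn10a, Scn3b and Scn2b. Their means ran from 14.0 ± 2.91 for Scn4b, over 4.77 ± 0.0892 for Scn4a, 1.40 ± 0.190 for Scn7a, 0.290 ± 0.107 for Scn10a and 0.251 ± 0.00936 for Scn3b, to 0.108 ± 0.0283 for Scn2b (SD, n = 3). Scn10a and Scn3b were neighbours that did not differ beyond their spread. In the TuD group the same order by mean held for Scn4b and for Scn2b, but Scn7a stood above Scn4a and Scn3b above Scn10a. There the means of Scn4b and Scn7a differed by less than the SD of Scn4b, and that of Scn10a lay within the SD of Scn3b of both Scn3b and Scn2b.

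Genes were tested when 3 or more of the 6 libraries had an FPKM of 1 or above. Only Scn4b, Scn4a and Scn7a of the members passed that filter, and Scn10a, Scn2b and Scn3b did not reach 1 in any library. The comparison for every gene past the filter was a limma fit on log2 of the normalised FPKM plus 0.5 with Benjamini-Hochberg adjustment. In that fit 29.1% of 10460 tested genes passed an adjusted p of 0.05, 14.8% higher and 14.2% lower in the TuD group, and the groups did not overlap for 47.9%. Lower by at least 2-fold and past the threshold were 1.46% of the tested genes. Of the 3 tested members all 3 passed, Scn4a and Scn4b lower and Scn7a higher. Because the members were chosen on this comparison, nothing is read from that count. In bulk tissue, fewer cells of a type and less RNA per cell cannot be told apart.

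**Figure D1:**
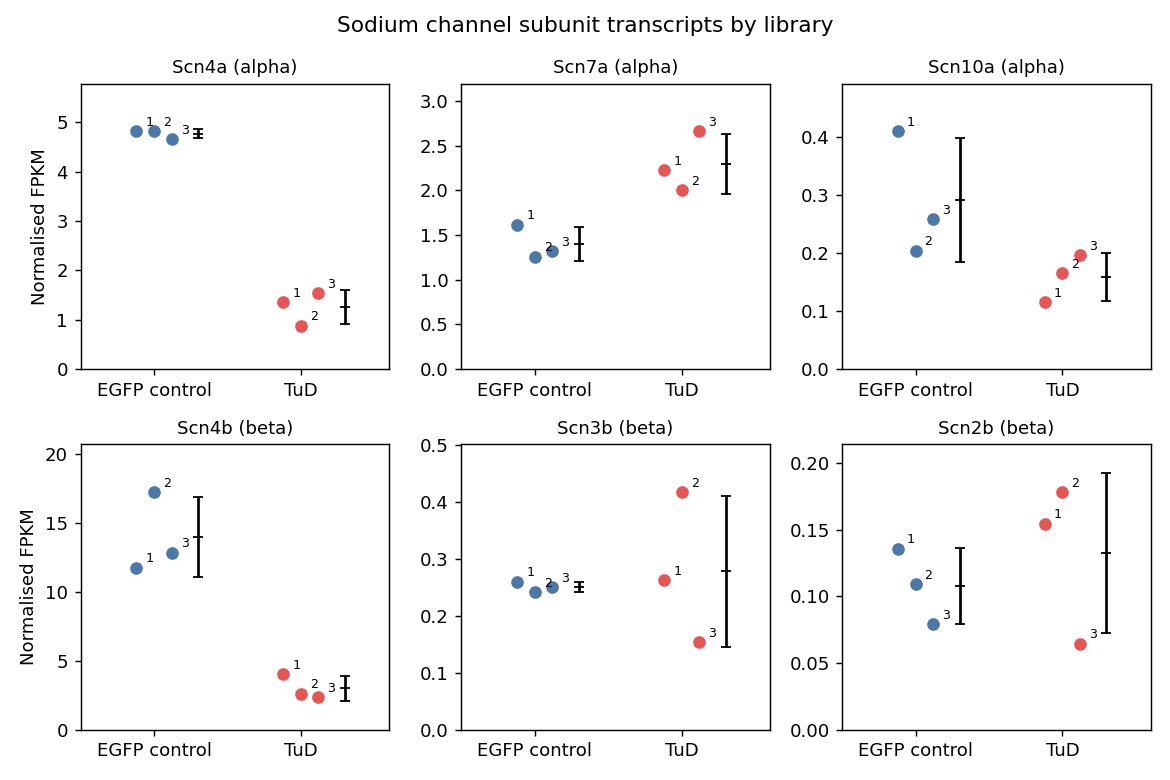
Normalised FPKM (vertical axis, from 0, on a scale of its own in each panel) of the 6 genes in the 3 EGFP control and 3 TuD libraries, with the replicate number at each point and the mean ± SD as a bar. The 3 TuD libraries sit below all controls for Scn4a and Scn4b and above them for Scn7a, and the groups overlap for Scn3b and Scn2b.

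Among the alpha subunits, Scn4a (ENSMUSG00000001027, chr11:106318592-106353288 in mm10, minus strand, 24 exons) stood at 4.81, 4.82 and 4.66 normalised FPKM in the 3 controls, in the order of their replicate numbers. The TuD replicates, in the same order, stood at 1.36, 0.875 and 1.53. The controls lay within 1.03-fold of each other, every decoy library lay below them, and TuD replicate 2 was the lowest. These levels came from 624 to 669 reads per control library and 89 to 180 reads per TuD library. The control mean was 3.80 times the TuD mean, and the log2 fold change (TuD minus control) was -1.61 ± 0.16 (SE, 95% interval -1.97 to -1.24). It was the 31st lowest of the 10460 fold changes. The Y-linked covariate gave -1.37.

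Scn4a is the channel of skeletal muscle, so markers of that tissue were read in the same libraries. Of 13 listed, 4 (Myh4, Tnnc2, Myog and Myh8) had no reads in any library, and the list summed to 1.16 to 1.47 in control and 2.90 to 4.17 in decoy libraries. Most of that sum in the decoy libraries came from Tnni2, fast skeletal troponin I, and Mylpf, a fast myosin light chain. Tnni2 stood at 0.527, 0.339 and 0.352 normalised FPKM in the controls and at 2.01, 1.57 and 1.12 with the decoys, and Mylpf at 0.347, 0.478 and 0.446 and at 1.42, 0.912 and 1.41. Chrna1, an acetylcholine receptor subunit, was lower in each decoy library (0 to 0.0149) than in the controls (0.0240 to 0.0694). Atp2a1, Actn3, Tnnt3 and Myh2 overlapped between the groups, and Myh1 and Myod1 were at 0 in every decoy library. Tnni2 alone passed the filter, through the decoy libraries where it was high, so its test is not given. The part of skeletal muscle RNA in the level of Scn4a was not tested.

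Scn7a (ENSMUSG00000034810, chr2:66673425-66784914, minus strand, 25 exons), the gene of the atypical subunit, went the other way. It stood at 1.61, 1.26 and 1.32 normalised FPKM in the controls, by replicate number, and the TuD libraries stood at 2.23, 1.999 and 2.66. All decoy libraries lay above the controls, with TuD replicate 3 the highest. The TuD mean was 1.64 times the control mean, from 212 to 326 reads per TuD library against 182 to 225 per control library. Its log2 fold change was +0.56 ± 0.14 (SE, 95% interval +0.23 to +0.89). The value was +0.74 with the Y-linked covariate and +0.29 after rescaling to TPM (per-length levels forced to 1 sum in each library), and Scn7a was then no longer past the threshold. Without a filter it missed the threshold too, as it did on leaving out TuD replicate 1 (+0.57), control replicate 2 (+0.50) or control replicate 3 (+0.53).

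Scn7a is also known from fibroblasts and Schwann cells. Of 12 fibroblast markers 3 were higher (Lum, Tcf21 and Dpt), 1 was lower (Col1a2) and 8 missed the threshold. The median log2 fold change was +0.26, with a summed level of 250.4 to 259 in control and 266 to 328 in decoy libraries. Of 12 Schwann cell markers only 3 could be tested and none passed, with summed levels of 32.6 to 36.7 and 33.8 to 39.2. Most of each sum was Pmp22 (25.05 to 31.4 normalised FPKM over all libraries), so the sum says little about the other markers. Cdh19, too low to be tested, ranged from 0.249 to 0.307 among control libraries, below every decoy library (0.453 to 0.580). The other markers of this list overlapped between the groups. The part of either cell type in the level of Scn7a was not tested.

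Scn10a (ENSMUSG00000034533, chr9:119608456-119719322, minus strand, 28 exons), the sensory neuron gene, was barely detected. It stood at 0.410, 0.204 and 0.258 normalised FPKM in the controls, from 62, 32 and 39 reads, with libraries again in the order of their numbers. The decoy libraries gave 0.115, 0.165 and 0.196, from 14, 19 and 26 reads. The groups did not overlap, but the gap between control replicate 2 and TuD replicate 3 was small against counting error: their reads had exact Poisson 95% intervals of 21.9 to 45.2 and 17.0 to 38.1. The control mean was 1.83 times the TuD mean, a log2 ratio of -0.87 that became -0.54 without control replicate 1. Neuronal markers were sparse, with 4 of 12, Snap25, Chrna3 and Elavl4 among them, at 0 in every library. Of 5 tested, Stmn2 was higher (+0.79 in log2, limma adjusted p = 0.0144), Hand2 was lower and 3 did not pass. The list summed to 48.5 to 75.9 in control and 44.4 to 51.6 in decoy libraries, most of it from Hand2, which heart muscle also expresses, and without Hand2 to 12.3 to 17.0 and 17.4 to 20.2. Hcn4 was the 1 of 3 tested Purkinje fibre markers that passed, as lower (-0.78 in log2, limma adjusted p = 0.0188). The Purkinje fibre markers summed to 14.4 to 27.6 in control and 13.7 to 15.7 in decoy libraries. The part of neurons or Purkinje fibres in the level of Scn10a was not tested.

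The makeup of the 3 alpha genes differed between the groups. Of their summed normalised FPKM, Scn4a supplied 74.0 ± 3.23% in control libraries and 33.5 ± 4.14% in decoy libraries (SD, n = 3 each). Scn7a supplied 21.6 ± 1.83% and 62.2 ± 3.10%. The share of Scn10a overlapped between the groups, 4.45 ± 1.40% and 4.33 ± 1.17%. The sum itself was 6.45 ± 0.334 without and 3.71 ± 0.676 with the decoys. These shares are of the 3 genes described here and not of all alpha subunits.

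**Figure D2:**
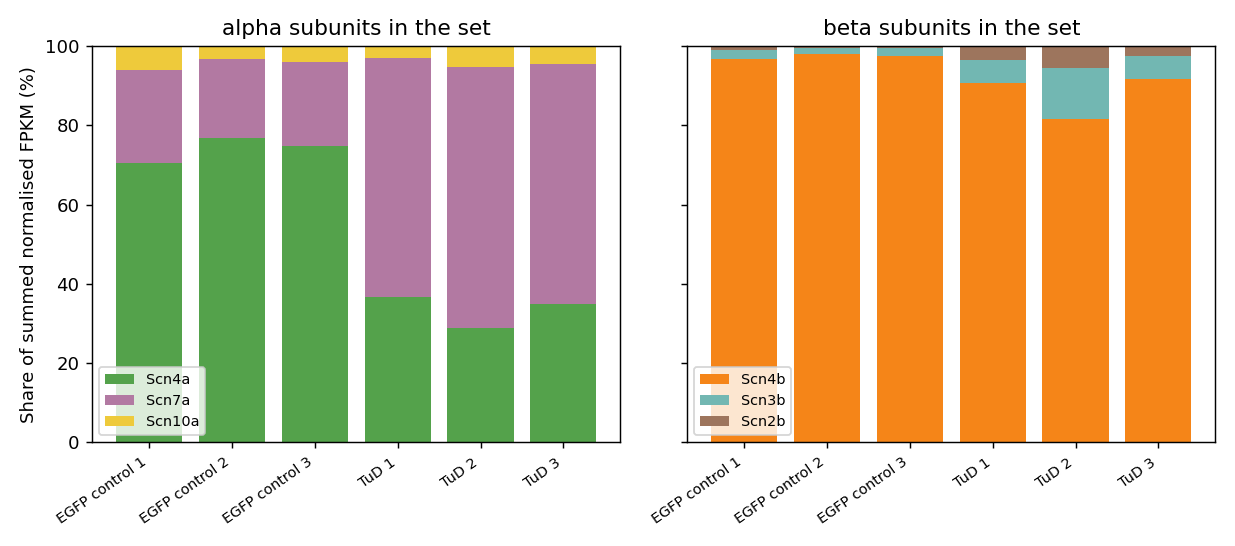
Share of the summed normalised FPKM (vertical axis, %) that each gene supplied within the 3 alpha genes (left) and the 3 beta genes (right), one bar per library. Scn7a supplies over 60% of the alpha sum in each TuD library and under 24% in each control, and Scn4b supplies most of the beta sum in every library.

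Among the beta subunits, Scn4b (ENSMUSG00000046480, chr9:45138395-45154152, plus strand, 5 exons) had the highest level of the 6 genes and the lowest fold change. It stood at 11.8, 17.3 and 12.8 normalised FPKM in the controls by replicate number, and the decoy libraries gave 4.04, 2.63 and 2.36. The decoy libraries all lay below the controls, although the spread within each group was wide: the highest library was 1.47 times the lowest among the controls and 1.71 times among the TuD libraries. Reads were 1114 to 1695 per control library and 189 to 308 per TuD library. The control mean was 4.64 times the TuD mean, and the log2 fold change was -2.06 ± 0.20 (SE, 95% interval -2.52 to -1.59), the 13th lowest of the 10460. It was -2.32 with the Y-linked covariate. Scn4b, with 2 matches to miR-199a-5p, was lower in the decoy libraries, and Scn7a, with 2 matches to miR-199a-3p, was higher. Scn4a, with no match, was also lower, and Scn3b, with 1 match to miR-199a-5p, overlapped between the groups. An action of the microRNA at these matches was not tested.

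Scn2b (ENSMUSG00000070304, chr9:45117782-45130070, plus strand, 4 exons) lies 8.32 kb upstream of Scn4b on the same strand and did not share its pattern. It stood at 0.136, 0.109 and 0.0791 normalised FPKM in the controls, and TuD replicates 1, 2 and 3 gave 0.154, 0.178 and 0.0643. The groups overlapped. Every library held between 5 and 12 reads of it, which limits what any difference in it can show.

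Scn3b (ENSMUSG00000049281, chr9:40269217-40291618, plus strand) overlapped between the groups as well. It stood at 0.260, 0.242 and 0.251 normalised FPKM in the controls, from 26 or 27 reads each. The TuD libraries spread on both sides of these, at 0.263, 0.418 and 0.154 in replicates 1, 2 and 3, from 22, 33 and 14 reads. The log2 ratios of the means were +0.15 for Scn3b and +0.29 for Scn2b, and after rescaling to TPM they were -0.26 and -0.12. For these genes the files show no direction that stands above the spread between libraries.

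Of the summed level of the 3 beta genes, Scn4b supplied 97.4 ± 0.634% in control and 87.9 ± 5.56% in decoy libraries (SD, n = 3 each). The mean sum was 14.3 ± 2.89 normalised FPKM without and 3.42 ± 0.957 with the decoys. Per length, Scn4b stood at 2.45, 3.58 and 2.76 times Scn4a in the controls by replicate number, while the decoy libraries gave 2.98, 3.001 and 1.54. That ratio overlapped between the groups (2.93 ± 0.587 and 2.51 ± 0.839), although both genes were lower in each decoy library.

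The values of the 3 tested members kept their direction under each alternative that could be fitted. Scn4b ranged from -2.52 to -1.90 and Scn4a from -2.13 to -1.37 on the log2 scale. Scn7a ranged from +0.29 to +0.74. Fold changes fell with gene length across all tested genes (correlation with log10 length -0.386, over genes, which are not independent), and the members are long, at 4982 to 7338 bases against a median of 3852. With the trend on length taken out of every library, Scn4b stood at -1.95, Scn4a at -1.45 and Scn7a at +0.72.

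**Figure D3:**
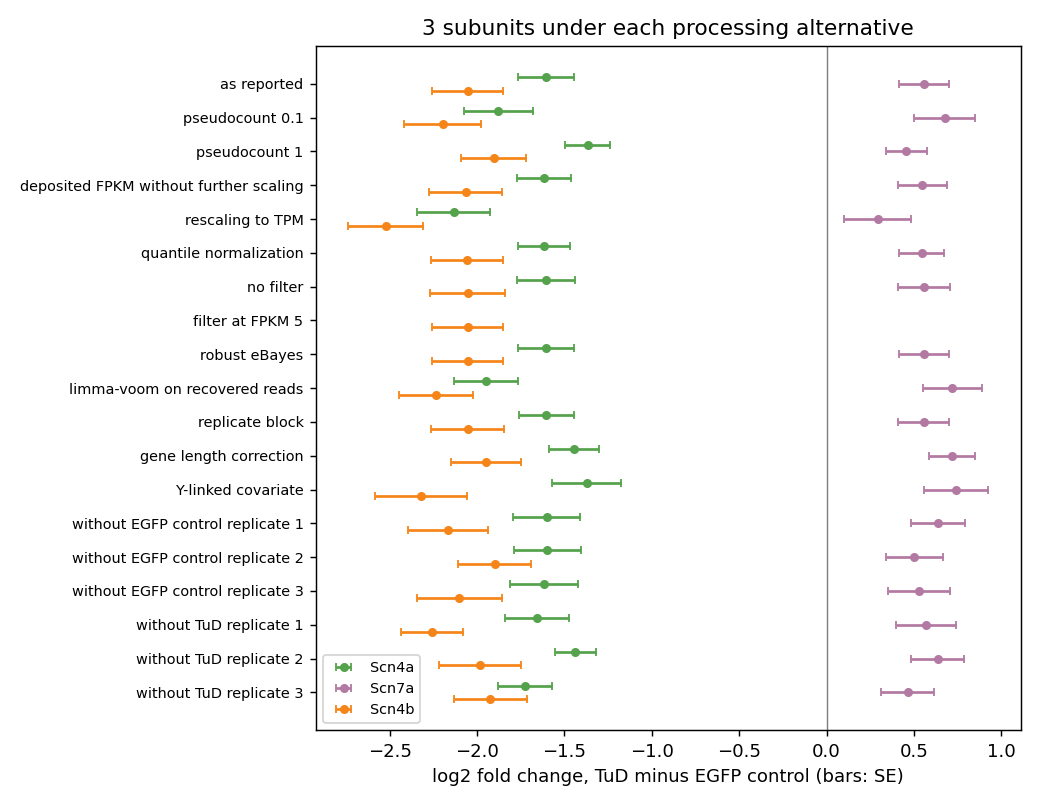
Log2 fold change, TuD minus EGFP control (horizontal axis, bars are SE), of Scn4a, Scn7a and Scn4b as reported and under each processing alternative (vertical axis). Scn4a and Scn4b lie left of 0 and Scn7a right of 0 in every row, and the FPKM 5 filter leaves only Scn4b.

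Several genes had a profile over the 6 libraries close to that of a member, by Pearson's correlation of log2 values. The nearest to Scn4b were Mmachc, Mapt and Repin1 (r of 0.999, 0.999 and 0.998), the nearest to Scn4a were Usp19, Tesk1 and 6330403L08Rik (0.999, 0.998 and 0.998), and the nearest to Scn7a were Spcs3, Btf3l4 and Mpp6 (0.996, 0.994 and 0.993). With 6 libraries in 2 groups such values are common: r was at least 0.95 for 451 genes with Scn4b, 666 with Scn4a and 181 with Scn7a. They are a description.

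The proteins that hold, modify and cleave these channels, and the carriers that move sodium, were read from 6 lists of 96 genes in all. The lists were chosen with earlier results of these data known. Their counts, shares and adjusted p-values are therefore a description, and nothing further is read from them. Of the 96 genes, 79 passed the filter. Of those 79, 27 were lower in the TuD group, 7 were higher and 45 did not pass (34.2% lower and 8.86% higher, beside 14.2% and 14.8% of all tested genes). Their median log2 fold change was -0.22, against +0.01 for all tested genes. They were longer than the typical gene (median 4913 bases against 3852), and with the length correction 18 were lower and 6 higher (22.8% and 7.59%, beside 11.4% and 12.8% of all tested genes in that fit). Leaving out control replicate 1, 2 or 3 left 20, 13 and 17 lower and 4, 3 and 3 higher. The same fits called 1037, 745 and 869 lower and 1077, 877 and 957 higher over all tested genes. With every library these were 1489 and 1550. Without TuD replicate 1 or 2, 1001 and 1029 of all tested genes were lower. List counts given below for such fits stand beside fewer calls throughout. With the Y-linked covariate, which rests on TuD replicate 3 among the decoy libraries, fewer genes passed in the lists and over all tested genes. Rescaling to TPM put the median over the tested genes at -0.36. It gave 48 lower and 2 higher in the lists, beside 4202 and 438 of all tested genes.

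Fibroblast growth factor homologous factors bind the tail of alpha subunits and shift their inactivation. Of 4 listed, 2 were tested. Fgf13 was lower, at 15.3 ± 2.39 and 9.80 ± 2.48 normalised FPKM (log2 fold change -0.63, limma adjusted p = 0.0349), but its call ended without control replicate 1 or 2, TuD replicate 1 or 2, without a filter, and with the block, length or Y-linked terms (adjusted p of 0.0553 to 0.369). Fgf11 did not pass (+0.05).

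Anchoring and scaffold proteins hold channels at the intercalated disc, the junction between heart muscle cells. Of 18 tested, 8 fell and 1 rose, 9 missed the threshold, and the median log2 fold change was -0.18. The gap junction gene Gja1 fell from 37.9 ± 3.78 to 20.9 ± 1.71 normalised FPKM (-0.84 ± 0.12 SE in log2, limma adjusted p = 0.00347). The cadherin gene Cdh2 fell from 25.7 ± 3.09 to 13.1 ± 4.31 (adjusted p = 0.0118, which the Y-linked covariate took to 0.104). Ank2, which encodes an ankyrin that anchors membrane carriers, fell from 2.61 ± 0.454 to 1.39 ± 0.147 (adjusted p = 0.0103, or 0.0803 under that covariate). Cav3, the muscle caveolin, was the one that rose (+0.45, adjusted p = 0.0223), and its call ended without any one control library, after rescaling to TPM (+0.06), with quantile normalization (+0.25), with the length correction (+0.12) and with the Y-linked covariate (+0.37). This list held 4, 3 and 4 lower genes without control replicate 1, 2 and 3, and 4 and 5 without TuD replicate 1 and 2.

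Trafficking and modification enzymes alter the surface level and gating of the channels. Of 20 tested, 6 fell, 2 rose and 12 did not pass, with a median of -0.20. The phosphatase gene Ptpn3 fell from 7.87 ± 0.438 to 3.82 ± 0.655 normalised FPKM (-0.96 ± 0.14 SE, limma adjusted p = 0.00364). The deubiquitinase gene Usp2 fell from 35.8 ± 5.53 to 19.5 ± 0.632 (-0.85 ± 0.13 SE, adjusted p = 0.00406). The kinase genes Camk2g and Prkaca fell by 0.64 each on the log2 scale (adjusted p = 0.00566 and 0.00699), and the call of Prkaca ended with the Y-linked covariate (0.0626). The calmodulin gene Calm2 rose by +0.62 (adjusted p = 0.00644, 0.183 after rescaling to TPM).

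Beta subunits are cut by secretases. Of 10 tested secretase genes 3 fell, 1 rose and 6 did not pass, with a median of -0.17. Bace1, whose product cuts beta subunits outside the membrane, fell from 4.71 ± 0.521 to 2.998 ± 0.315 normalised FPKM (-0.57 ± 0.13 SE, limma adjusted p = 0.0133). Ncstn, a subunit of gamma-secretase, fell from 16.4 ± 0.710 to 11.9 ± 0.741 (adjusted p = 0.0140). The calls of Bace1 and Ncstn ended without control replicate 2 (0.0539 and 0.0564) and with the Y-linked covariate (0.0948 and 0.102). Psenen, another subunit of gamma-secretase, rose (+0.49, adjusted p = 0.0330), and its call ended on leaving out any library but TuD replicate 3. It also ended after rescaling to TPM (+0.10, 0.578), with the length correction (+0.18, 0.223), with the Y-linked covariate (+0.26, 0.303) and without a filter (0.0812). Without control replicate 2 no gene of this list passed as lower.

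**Figure D4:**
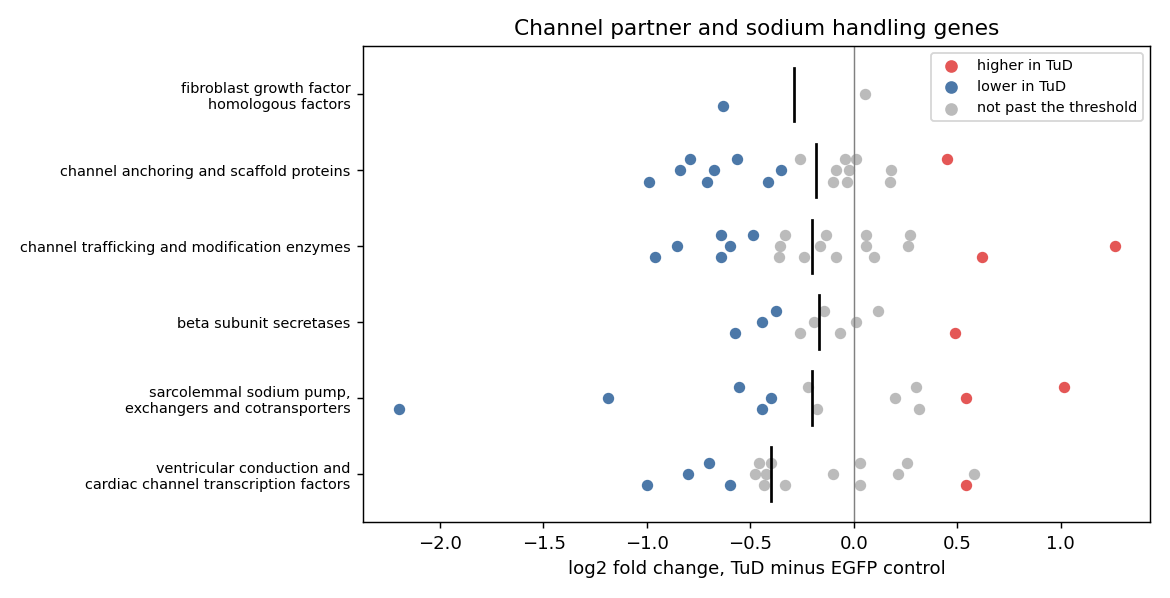
Log2 fold change, TuD minus EGFP control (horizontal axis), of the 79 tested genes in the 6 lists of channel partners and sodium handling (vertical axis). Each point is a gene, coloured by whether it passed the threshold, the vertical offset only separates points, and the black line is the list's median; the medians run from -0.40 to -0.17.

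Sodium that enters through the channels is returned by the sodium pump and shared with the sodium-calcium exchanger. Of 12 tested genes of this kind 5 fell, 2 rose and 5 did not pass, with a median of -0.20. The exchanger gene Slc8a1 fell from 31.6 ± 7.60 to 6.70 ± 2.81 normalised FPKM (-2.20 ± 0.28 SE, limma adjusted p = 0.00258), a difference close in size to that of Scn4b. Atp1b1, the beta subunit of the pump, fell from 99.1 ± 15.7 to 43.9 ± 11.5 (-1.19 ± 0.20 SE, adjusted p = 0.00620, or 0.0579 under the Y-linked covariate). Without control replicate 2 or 3 or TuD replicate 1, 3 genes of this list passed as lower. Fxyd5, which binds the pump, rose from 3.82 ± 0.472 to 8.33 ± 1.89 (+1.01 ± 0.17 SE, adjusted p = 0.00560), and Fxyd1, also a pump partner and named after its values were seen, rose by +0.54 (adjusted p = 0.0346). Without any one library other than TuD replicate 3, Fxyd5 alone of this list passed as higher.

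The last list held transcription factors of the ventricle and of the conduction system. Of 17 tested, 4 fell, 1 rose and 12 did not pass, with a median of -0.40. Gata4 fell from 51.3 ± 3.14 to 25.4 ± 0.866 normalised FPKM (-1.001 ± 0.10 SE, limma adjusted p = 0.00191) and Irx4, a ventricular factor, fell from 22.5 ± 1.58 to 13.6 ± 1.39 (-0.70 ± 0.11 SE, adjusted p = 0.00508). Hand2, a basic helix-loop-helix factor, and Foxo3, a forkhead factor, fell by 0.80 and 0.60 on the log2 scale (adjusted p = 0.0226 and 0.0337), and Mef2a, a muscle factor, rose by +0.54 (adjusted p = 0.0354). These 3 calls ended without control replicate 2 or 3, those of Hand2 and Mef2a also without TuD replicate 1, those of Hand2 and Foxo3 without TuD replicate 2, that of Foxo3 without control replicate 1 and that of Mef2a without TuD replicate 3 (adjusted p of 0.0514 to 0.120). All 3 also ended without a filter (0.0770 to 0.0973), Hand2 and Foxo3 with the Y-linked covariate (0.195 and 0.254), Foxo3 with the length correction (0.0731) and Mef2a after rescaling to TPM (+0.20, 0.403).

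Markers of the cell types that heart tissue can hold are given beside these results. Of 12 heart muscle markers 5 (Myl2, Tnnt2, Tnni3, Tnnc1 and Pln) were higher and none lower (median +0.32, summed level 37080 to 40640 in control and 42570 to 50760 in decoy libraries). Of 10 endothelial markers 2 (Egfl7 and Fabp4) were higher and none lower (median +0.29, summed 298 to 375 and 366 to 519). Of 9 tested smooth muscle and pericyte markers 2 were higher (Rgs5 and Kcnj8) and 2 lower (Abcc9 and Notch3) (median -0.00, summed 189 to 242 and 192 to 316). Among 3 tested atrial markers none passed (summed 128 to 373 and 160 to 219), and outside TuD replicate 3 most of the sum was Nppa. Myl7 passed the filter only through the decoy libraries, at 1.44, 1.29 and 90.5 by replicate number, against 0.178 to 0.268 in the controls. Myl4 and Sln stood at 12.6 and 10.7 in TuD replicate 3, and at 0.34 to 1.06 and 0 to 0.16 in the other libraries. The adipocyte markers summed to 33.2 to 38.8 and 27.1 to 47.3, most of it Plin4, which did not pass. The adipocyte genes Cfd, Adipoq, Cidec and Retn were low but higher in each decoy library than in any control, with Cfd at 0.0571 to 0.742 and 3.31 to 9.5 normalised FPKM. Cfd passed the filter only through the decoy libraries. Marker genes were named after their values were seen. The part of heart muscle and of the other cell types in the levels of the members was not tested.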

How the data were processed

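Per the labels, 6 libraries of mouse myocardium were made from total RNA with a NEBNext Ultra kit. The deposited values are FPKM per gene. The submitters' processing notes name HISAT2 2.0.5, featureCounts 1.5.0-p3 and the build mm10. Annotation release and strand setting are not given in the sources used here. FPKM times gene length gave whole reads (within 0.05) for 100% of values above 0. The divisor so implied was not the total of recovered reads. It was 15370946 and 14364125 in TuD replicates 1 and 2, below the 16241621 and 15231319 reads recovered. In control replicate 1 it was 19157355, above the 18024041 recovered. The deposited values thus already carried a scaling of their own.

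Here, size factors (median of ratios over tested genes, 0.992 to 1.02) scaled the FPKM. Genes were tested where 3 or more of 6 libraries had an FPKM of 1 or above. The test was limma 3.58.1 (R 4.3.3) with a trended prior variance, on log2 of that value plus 0.5, two-sided, adjusted over 10460 genes. It was also run on simulated reads of equal depth. Those had no length trend and no difference in Y-linked transcripts, so that run does not bear on the calls given here. Intervals on reads cover counting error only. Log2 values with an added 0.5 understate changes of low genes; for members below the filter the log2 ratio of the group means, with nothing added, is given. Seed matches were searched with Python 3.11.15 in the longest 3' untranslated region of each gene in GENCODE M21, which holds 54409 of the file's 54532 gene identifiers and places all 6 members at the file's coordinates.

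The members and lists were chosen with earlier results of these data known. Named partner genes were drawn from the 6 tested genes with the smallest p of each list, and likeness from the 3 highest correlations per tested member. Alternatives covered pseudocounts of 0.1 and 1, scalings, filters, variance models, the replicate number as a block, limma-voom on recovered reads, gene length (lowess, span 0.3), Y-linked transcripts and each library left out. Other genes of the family are not analysed here, and some members of the lists are counted but not reported by name.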

Additional observations from a re-analysis of the deposited data

How the results depend on the processing

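No called result reversed; the untested Scn3b and Scn2b changed sign after rescaling to TPM (-0.26 and -0.12). Rescaling to TPM gave 438 higher and 4202 lower genes against 1550 and 1489, log2 fold changes of -2.13 for Scn4a, +0.29 for Scn7a and -2.52 for Scn4b, and 2 higher and 48 lower genes in the partner and sodium handling lists (7 and 27 as reported). Without a filter 989 genes were higher and 947 lower, and 4 and 17 in those lists. With the Y-linked covariate 640 genes were higher, 543 lower and 10 of the lists lower, with Scn4a at -1.37 and Scn7a at +0.74. Scn4a moved to -1.88 and -1.37 with pseudocounts of 0.1 and 1. With limma-voom on recovered reads Scn4a stood at -1.95 and Scn7a at +0.72, and with the length correction Scn7a at +0.72. With the FPKM 5 filter 1 member, Scn4b, was past the threshold, because Scn4a and Scn7a were not tested. Leaving out single libraries gave 877 to 1700 higher and 745 to 1612 lower genes, and 3 to 7 higher and 13 to 29 lower in the lists. Leaving out control replicate 2 gave 877 and 745 genes, and leaving out control replicate 3 gave 957 and 869. The members ranged over the same fits from -1.72 to -1.44 (Scn4a), +0.46 to +0.64 (Scn7a), -2.26 to -1.90 (Scn4b), -1.08 to -0.54 (Scn10a), +0.02 to +0.62 (Scn2b) and -0.26 to +0.44 (Scn3b), with 2 to 3 tested members past the threshold. Except where stated, the cause was not tested. Deviations of same-numbered libraries correlated at 0.0641, 0.0885 and -0.0555, and those of other pairs at -0.161 to 0.0936. With 3 libraries per group that also differ in Y-linked and atrial transcripts, these values cannot tell whether the replicate numbers pair the libraries. With the replicate block 1447 genes were higher and 1195 lower, 7 and 24 in the lists, and all 3 tested members passed. Of 570 fits of 32 named partner genes, 482 kept their side of the threshold, 82 lost and 6 gained a call, and none reversed. Depth limits Scn2b, Scn3b and Scn10a, at 5 to 62 reads per library.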
